A study of Mus musculus with 3 samples.

Results

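The 33 genes described here carry glucose from the cell surface to lactate or belong to the response to low oxygen. Of them 10 are genes of oxygen sensing and hypoxia, and the others serve glucose uptake, glycolysis and lactate handling. They were taken by name from a table of 56833 genes, and all 33 had a mean of at least 50 normalized counts over the libraries, a minimum that 11873 genes met. RNA came from mouse ankle synovium, the soft lining of the joint. The cells had the genotype Efhd1CreER; Ai9, in which a tamoxifen-inducible Cre expressed under Efhd1 control switches on the red reporter tdTomato, and tdTomato+ cells were sorted. Sorted cells were kept for 24 h on collagen-coated CytoSoft plates. The soft plate was of 0.2 kPa, the intermediate one of 8 kPa and the stiff one of 64 kPa. Genotype, the reporter sorted for, coating and time were the same, and stiffness differed. With 1 library at each level, stiffness cannot be told apart from other differences between the libraries. Each level had 1 library. The ages of the mice, the tamoxifen schedule and the number of animals behind a library are not given in the sources used here.

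With 1 library at each level there is no replicate check, and no p-value is given. Values are normalized counts, that is reads divided by a size factor of the library. A log2 ratio compares these values after adding 1 to each, and its counting interval comes from the exact 95% Clopper-Pearson bounds on how a gene's reads divide between a pair of libraries. PCR makes reads that are not separate molecules, so these intervals hold counting error alone. A gene was called higher or lower when its log2 ratio reached 0.5 in size. Libraries held 25487064 to 28081600 reads, and 1 read was worth 0.943 to 1.03 normalized counts.

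The labels call the cells telocytes, interstitial cells with long processes. Efhd1 itself stood at 10.3, 4.71 and 3.08 normalized counts from the softest plate to the stiffest, against a limit of 2.83 to 3.08 that a count of 0 allows. Other genes of the telocyte list were present, with Vim at 94005, 103009 and 111934, Pdgfrb at 7766, 8354 and 7732 and Pdgfra at 5884, 6298 and 5118. Cd34 stood at 234.8, 242.3 and 317.9, Foxl1 at 237.8, 232.8 and 185.6 and Kit at 42.0, 38.7 and 45.1. Of the 5 past the minimum mean, 0 were called from soft to stiff. The 9 fibroblast genes took 0.944%, 1.11% and 1.29% of all reads, a sum in which Col1a1 (78648, 110715 and 151834 normalized counts) weighed most on the stiff plate. Among them Dcn, Lum and Pdgfra had log2 ratios of stiff to soft below 0, at -0.44, -0.36 and -0.20. Those of Col1a1, Prg4, Thy1, Col1a2, Col3a1 and Pdpn were above 0, at 0.95, 0.62, 0.37, 0.28, 0.26 and 0.12. Of the 9, Col1a1 and Prg4 were called higher and 0 lower, beside 11.8% and 3.77% of all genes. Macrophage markers were present too. None of the 15 was at 0 in any library, and their summed level was 32374, 40479 and 71421 normalized counts, or 0.124%, 0.153% and 0.263% of the reads. Of the 14 macrophage markers past the minimum mean, 13 were called higher on the stiff plate, with a median log2 ratio of 1.26 to the soft one. Their part in the results below was not tested. Bulk RNA cannot tell fewer cells of a type from less RNA per cell. None of the 5 endothelial markers reached the minimum mean. Cldn5 was at 0 in every library, Pecam1 stood at 12.3, 12.3 and 4.10 and Cdh5 at 5.13, 2.83 and 0, while Kdr stood at 21.5, 25.5 and 46.1 and Tek at 13.3, 20.7 and 21.5. Of 7 skeletal muscle markers, Ckm, Myh1, Myh4 and Tnnt3 had 0 to 5 reads in each library. Acta1, skeletal alpha-actin, stood at 168.1, 297.0 and 622.5 and was called higher on the stiff plate, with Actn3 at 78.9 to 97.4 and Mylpf at 46.1 to 54.7.

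Glycolysis splits glucose into pyruvate and yields ATP without oxygen. The pyruvate either enters mitochondria or is reduced to lactate, which leaves the cell with a proton. When oxygen is short, the prolyl hydroxylases that mark hypoxia-inducible factor (HIF) alpha subunits for destruction slow down, HIF accumulates, and it binds short hypoxia response elements beside many glycolytic and hypoxia genes. The synovium is a tissue in which low oxygen and high glycolysis are well known in arthritis.

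Hypoxia response elements share the core letters ACGTG or GCGTG. These were searched on both strands in the 250 bases before each RefSeq start, and overlapping matches, such as both strands of CACGTG, counted separately. RefSeq promoter windows were found for 30 of the 33 members, and were placed on GRCm39 by exact match. The core letters stood in 36 of the 47 windows of members (76.6%), against 12679 of 32851 windows of all genes (38.6%). A pair of matches or more was found in 42.6% of the members' windows and in 16.7% of all windows. By gene, 27 of the 30 had a match in some window, and Eno2, Gpi1 and Tpi1 had none in any. Such a match is a description of letters. Both cores hold the letters CG, and the windows of all genes were not matched to those of members in base content. Windows of the same gene can overlap, as those of Eno1 do, so the same site can count more than once. The 5 stretches here begin at most 250 bases before the start and leave out annotated untranslated sequence, with the core matches in capitals on whichever strand they lie. Adm and Eno2 are shown because they had the highest and the lowest ratio of stiff to soft. Hk2, Egln3 and Bnip3 were chosen after their values were seen, the first pair as called members and Bnip3 as a member with several matches and no call.

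Adm, chr7:110226614-110226857, GRCm39, plus strand: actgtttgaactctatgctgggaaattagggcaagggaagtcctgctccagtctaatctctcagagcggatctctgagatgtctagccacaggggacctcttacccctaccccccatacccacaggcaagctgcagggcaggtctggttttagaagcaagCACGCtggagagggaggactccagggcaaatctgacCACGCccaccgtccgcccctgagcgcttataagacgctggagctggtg
Hk2, chr6:82751470-82751685, GRCm39, minus strand: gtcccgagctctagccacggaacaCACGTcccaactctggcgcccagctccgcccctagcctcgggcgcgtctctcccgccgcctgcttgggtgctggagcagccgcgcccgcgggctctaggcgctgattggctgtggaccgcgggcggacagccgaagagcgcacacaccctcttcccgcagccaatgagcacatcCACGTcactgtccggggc
Egln3, chr12:54250674-54250910, GRCm39, minus strand: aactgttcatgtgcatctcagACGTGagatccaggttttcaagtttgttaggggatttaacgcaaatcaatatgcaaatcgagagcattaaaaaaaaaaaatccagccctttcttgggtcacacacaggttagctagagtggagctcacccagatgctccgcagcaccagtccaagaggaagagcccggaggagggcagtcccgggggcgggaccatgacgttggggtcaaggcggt
Bnip3, chr7:138511254-138511485, GRCm39, minus strand: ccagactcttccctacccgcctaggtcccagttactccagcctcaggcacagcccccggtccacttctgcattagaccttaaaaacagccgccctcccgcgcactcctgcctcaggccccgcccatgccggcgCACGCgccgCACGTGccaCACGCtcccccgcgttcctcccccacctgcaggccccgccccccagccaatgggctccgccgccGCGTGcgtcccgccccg
Eno2, chr6:124746637-124746825, GRCm39, minus strand: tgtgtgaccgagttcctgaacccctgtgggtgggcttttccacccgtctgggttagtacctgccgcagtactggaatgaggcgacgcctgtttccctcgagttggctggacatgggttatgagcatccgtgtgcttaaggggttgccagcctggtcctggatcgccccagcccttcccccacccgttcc

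The matches of Adm lay 90 and 54 bases before its start and those of Hk2 lay 226 and 52 bases before. Egln3 had its match 229 bases before the start, while Bnip3 had 5 matches, at 117, 108, 107, 99 and 35 bases.

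On the stiff plate compared with the soft one, Adm, Aldoc, Hk2, Egln3 and Ndrg1 were called higher. These 5 of 33 members (15.2%) stand beside 11.8% of all genes called higher, a share near the background. With the trend of all genes in transcript length and GC content subtracted, 3 were called, Adm, Aldoc and Egln3. No member was called lower, against 3.77% of all genes. The members leaned upward by less than the calling threshold. A log2 ratio of at least 0.25 was found in 14 members (42.4%) and in 23.7% of all genes, and at most -0.25 in 3 members, Slc2a3, Eno2 and Bnip3l, and in 15.2% of all genes. The ratio was above 0 in 24 members (72.7%) and in 51.1% of all genes. Their median log2 ratio was 0.18, against 0.005 for all genes. With that trend subtracted, 9 members (27.3%) reached 0.25, against 18.0% of genes, and the median was 0.09. Subtracting it brought the stiff to soft log2 ratio closer to 0 for Hk1 (0.18), Pfkfb3 (0.21), Slc2a1 (0.03), Pkm (0.05) and Bnip3l (-0.12), and took it farther from 0 for Gapdh (0.48), Pgk1 (0.25), Aldoa (0.30) and Adm (1.30). Their values without the subtraction follow.

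**Figure D1:**
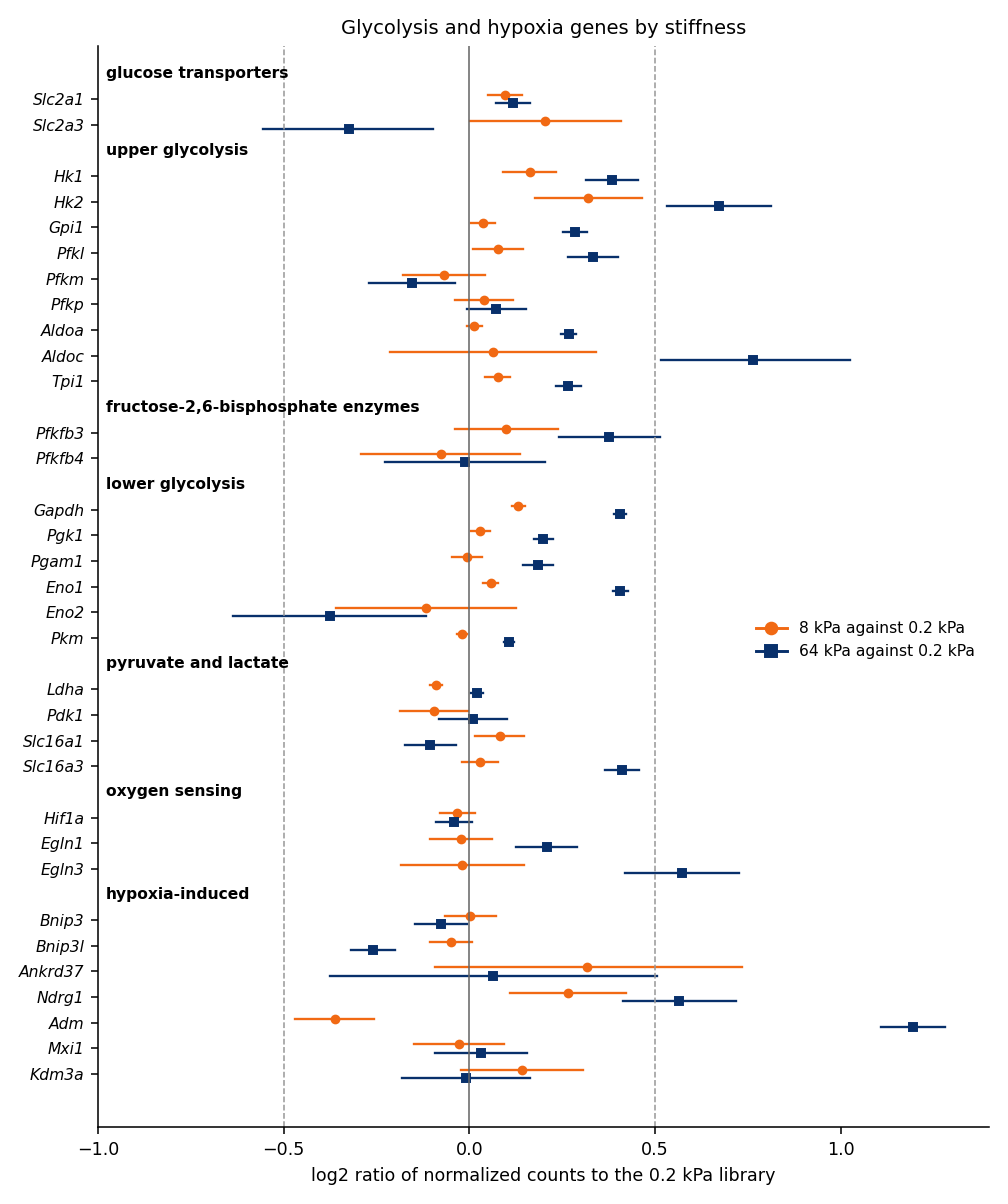
Log2 ratio of each of the 33 members, ordered by role, for stiff to soft and intermediate to soft. Points are single libraries compared and bars are 95% counting intervals, with no replicate. Adm lies farthest to the right in stiff to soft, at 1.19, and Eno2 farthest to the left, at -0.37.

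Most of the difference lay between the intermediate and the stiff plate. From soft to intermediate, 0 members were called higher and 0 lower, against 3.94% and 0.657% of all genes. Ratios above 0 numbered 20 of 33 (60.6%), beside 53.5% of all genes, and the median was 0.03, against 0.01 for all genes. From intermediate to stiff, Adm, Aldoc and Egln3 were called higher (5.42% of all genes were) and Slc2a3 was called lower (3.42% were). At least 0.25 was reached by 11 members (33.3%) and by 16.2% of all genes, and at most -0.25 by 3, Slc2a3, Eno2 and Ankrd37, and by 12.5% of all genes. The 11 became 7 (21.2%, against 13.0% of all genes) under total-read scaling and 6 (18.2%, against 13.4%) with the trend subtracted, nearer to the background. Ratios were above 0 in 24 members and in 51.1% of all genes, and the median was 0.17. The stiff to soft and stiff to intermediate ratios share the stiff library. Ratios of at least 0.25 upward in each step were found in Hk2 and Ndrg1, 2 of 33 members, against 5.73% of all genes, a count that was 1 under total-read and upper-quartile scaling and 0 with the trend subtracted. None moved by that much downward in each step, against 0.707% of all genes.

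**Figure D2:**
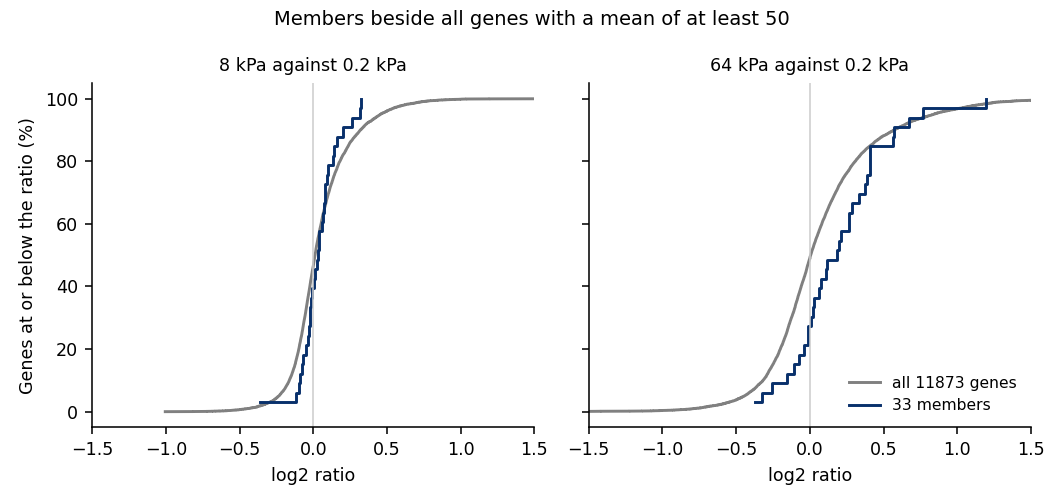
Cumulative share of genes in percent by log2 ratio, for the 33 members and for all 11873 genes past the minimum mean. The first panel holds intermediate to soft, where the medians are 0.03 and 0.01, and the other holds stiff to soft. In stiff to soft the members' curve lies to the right over most of its course, with a median of 0.18 against 0.005.

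Glucose enters by facilitative transporters. Slc2a1, which encodes GLUT1, the basal transporter of most cells, stood at 7434, 7943 and 8064 normalized counts on soft, intermediate and stiff plates. That is a nearly level course, with a stiff to soft log2 ratio of 0.12. Slc2a3, which encodes the high-affinity transporter GLUT3, stood at 369.1, 425.2 and 294.3. It was highest on the intermediate plate, and its log2 ratio of stiff to intermediate was -0.53 (counting interval -0.75 to -0.31). Per kilobase of transcript, Slc2a1 made up 73.1%, 74.5% and 76.1% of the 5 glucose transporters compared, Slc2a3 3.12% to 4.47%.

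Hexokinases trap glucose in the cell as glucose 6-phosphate. Hk1, the broadly expressed form, stood at 2976, 3332 and 3885, a log2 ratio of 0.38 from soft to stiff. Hk2, the form induced by insulin and by hypoxia, stood at 695.1, 868.2 and 1108. Both were higher at each step of stiffness, and the log2 ratio of Hk2 was 0.67 (0.53 to 0.81). With the length and GC trend subtracted, Hk2, whose transcript of 7796 bases is the longest of the members, came to 0.26 and was not called. Hk3, a hexokinase not among the members that is known from myeloid cells, stood at 829.4, 1138 and 1598, a log2 ratio of 0.95. Per kilobase, Hk3 made up 24.7%, 28.4% and 32.1% of hexokinase transcript, Hk2 8.56%, 8.96% and 9.19%, and Hk1 the rest. Shares sum to 100%, so the lower share of Hk1 on the stiff plate mirrors the higher one of Hk3, while the level of Hk1 itself was 695.4, 778.4 and 907.6 normalized counts per kilobase. The macrophage markers differed in the same direction, with a summed level of 32374 on the soft and 71421 on the stiff plate, and their part in the share of Hk3 was not tested.

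**Figure D3:**
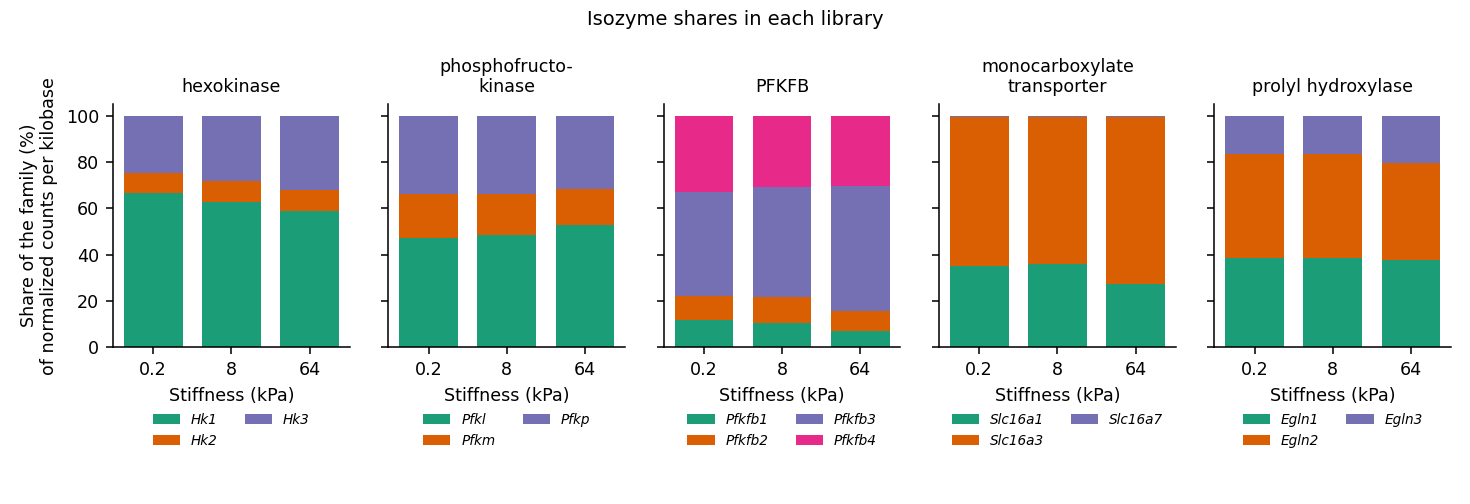
Share in percent of each paralog in its enzyme step, from normalized counts per kilobase, in the soft, intermediate and stiff library, 1 library each. The share of Hk1 goes from 66.7% to 58.7% and that of Hk3 from 24.7% to 32.1%, while Pfkfb3 goes from 44.8% to 54.0%.

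Gpi1, which turns glucose 6-phosphate into fructose 6-phosphate, stood at 14571, 14950.3 and 17761, and was highest on the stiff plate. Phosphofructokinase commits the sugar to glycolysis. Its liver-type gene Pfkl stood at 3394, 3582 and 4275, its platelet-type gene Pfkp at 2569, 2639 and 2702, and its muscle-type gene Pfkm at 1339, 1277 and 1203. The order of Pfkm ran the other way from that of Pfkl. Log2 ratios of stiff to soft were 0.33 for Pfkl, 0.07 for Pfkp and -0.15 for Pfkm, and the share of Pfkl in the enzyme's transcript per kilobase was 47.1%, 48.4% and 52.9%. With the length and GC trend subtracted, Pfkl came to 0.08. Pfkm overlaps Senp1 and Pfkp overlaps Pitrm1, each on the opposite strand, with means of 992.5 and 1529 normalized counts, and the strand setting of the counting is not given in the sources used here.

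Aldolase splits the phosphorylated sugar into triose phosphates. Aldoa, the main form in most tissues, stood at 40680.4, 41069.9 and 48954 normalized counts, and Aldoc, the brain-type form, at 210.2, 219.7 and 357.9. Both were highest on the stiff plate, and both had nearly level values from soft to intermediate. Aldoc had the larger log2 ratio of stiff to soft, 0.77 (0.52 to 1.02), against 0.27 for Aldoa, but gave only 0.279% to 0.395% of aldolase transcript per kilobase. Tpi1, triose phosphate isomerase, stood at 13808, 14554 and 16615, a log2 ratio of 0.27.

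The enzymes of the PFKFB family set the level of fructose 2,6-bisphosphate, which activates phosphofructokinase. Pfkfb3, the form with the strongest kinase activity, stood at 805.8, 863.5 and 1046, and Pfkfb4 at 368.0, 348.8 and 365.1. Their log2 ratios of stiff to soft were 0.38 and -0.01, and the share of Pfkfb3 per kilobase in the 4 family members was 44.8%, 47.3% and 54.0%. Pfkfb1, which is no member, stood at only 70.7, 63.2 and 46.1. It was called lower, with a log2 ratio of -0.61 and a wide counting interval of -1.19 to -0.05.

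Lower glycolysis harvests ATP. Gapdh, which oxidizes glyceraldehyde 3-phosphate, stood at 52373, 57394 and 69395 normalized counts. It was higher at each step, with a stiff to soft log2 ratio of 0.41 (0.39 to 0.42). Pgk1, the first ATP-forming enzyme, stood at 24030.4, 24525 and 27583, and Pgam1, which moves the phosphate group, at 9874, 9827 and 11223. Both were highest on the stiff plate, with log2 ratios of 0.20 and 0.18. Eno1, the broadly expressed enolase, stood at 36247, 37720.4 and 48054, a log2 ratio of 0.41 (0.39 to 0.43). Eno2, the neuronal enolase, stood at 290.1, 267.7 and 223.6 and ran the other way, with a log2 ratio of -0.37 (-0.64 to -0.12). Pkm, which encodes muscle pyruvate kinase, had the highest values of all members, 93331, 92055 and 100485, and a log2 ratio of 0.11. Per kilobase, Eno1 gave 99.0%, 99.2% and 99.4% of enolase transcript.

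Over the 16 enzymes from hexokinase to lactate dehydrogenase, 14 had a ratio of stiff to soft above 0, beside 51.1% of all genes. Pfkm and Eno2 had one below 0. The sign of Ldha, near 0, changed with scaling. The median log2 ratio was 0.27, beside 0.005 for all genes. The enzymes together took 1.37%, 1.37% and 1.53% of all reads in the soft, intermediate and stiff library. Lactate dehydrogenase A, Ldha, turns pyruvate into lactate. It stood at 61538, 57787 and 62466, and was lowest on the intermediate plate. Its stiff to soft log2 ratio of 0.02 was -0.03 under total-read and upper-quartile scaling and 0.09 with the length and GC trend subtracted. Pdk1, a kinase that holds pyruvate out of mitochondria, stood at 1979, 1852 and 1993, with a log2 ratio of 0.01 that was also below 0 under those scalings.

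Lactate crosses the membrane by monocarboxylate transporters. Slc16a3, which encodes the export form MCT4, stood at 6838, 6971 and 9087, and was highest on the stiff plate. Slc16a1, which encodes MCT1, stood at 3635, 3846 and 3379, lowest on the stiff plate. The log2 ratios of stiff to soft were 0.41 (0.36 to 0.46) for Slc16a3 and -0.11 (-0.17 to -0.04) for Slc16a1. Per kilobase the share of Slc16a3 was 64.5%, 63.6% and 72.0%. Subtracting the length and GC trend left 0.09 for Slc16a3 and -0.03 for Slc16a1, a much smaller difference between them. Slc16a3 also overlaps Csnk1d on the opposite strand, which had a mean of 5058 normalized counts.

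**Figure D4:**
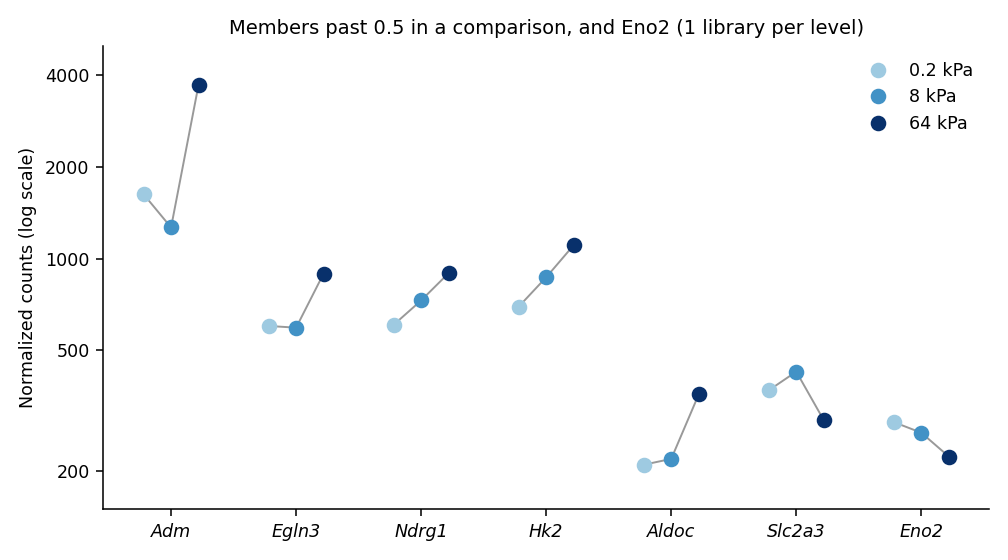
Normalized counts on a log axis by plate stiffness for the members past 0.5 in a comparison and for Eno2, 1 library per level with no error bar. Adm dips on the intermediate plate, at 1266, and reaches 3728 on the stiff one, while Slc2a3 peaks on the intermediate plate.

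Hif1a, the oxygen-regulated subunit of HIF, showed no step. It stood at 7212, 7048 and 7012, with a stiff to soft log2 ratio of -0.04 (-0.09 to 0.01), and 0.04 once the length and GC trend was taken out. These are transcript levels, and HIF is set mainly through the stability of its protein, which was not measured. Epas1, the gene of the HIF-2 alpha subunit and no member, stood at 81.0, 117.8 and 153.8, a log2 ratio of 0.92. Hif1a gave 98.6%, 98.0% and 97.4% of the transcript of both subunits per kilobase. Egln1, the main prolyl hydroxylase that marks HIF, stood at 2312, 2276 and 2670.4, a log2 ratio of 0.21 that was -0.09 with the length and GC trend subtracted. Egln3, the prolyl hydroxylase most strongly induced by HIF, stood at 600.8, 593.0 and 893.2. Its level on the stiff plate stood apart from the other two, which were nearly level. From soft to stiff the log2 ratio was 0.57 (0.42 to 0.73), and the share of Egln3 in the 3 hydroxylases per kilobase was 16.4%, 16.5% and 20.6%.

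The hypoxia-induced members did not move together. Adm encodes adrenomedullin, a vasodilator peptide. It stood at 1628, 1266 and 3728 normalized counts, low on the intermediate plate and high on the stiff one. The log2 ratios were -0.36 (-0.47 to -0.26) from soft to intermediate, 1.56 (1.47 to 1.65) from intermediate to stiff, and 1.19 (1.11 to 1.28) from soft to stiff, a 2.29-fold difference. Among the 11873 genes Adm had rank 21 from the top in stiff to intermediate, rank 192 in stiff to soft and rank 220 from the bottom in intermediate to soft. Ndrg1, a stress-induced gene of differentiation, stood at 605.9, 728.7 and 896.3, higher at each step, with a stiff to soft log2 ratio of 0.56 (0.41 to 0.72). Its call ended with the length and GC trend subtracted, at 0.42, and under total-read scaling, at 0.498.

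Bnip3 and Bnip3l encode receptors that mark mitochondria for removal by autophagy. Bnip3 stood at 3363, 3369 and 3189, and Bnip3l at 5127, 4956 and 4281. The lowest value of each was on the stiff plate, with log2 ratios of stiff to soft of -0.08 and -0.26, or -0.02 and -0.12 with the length and GC trend subtracted. Ankrd37, an ankyrin repeat gene used in hypoxia signatures, stood at 89.2, 111.2 and 93.3 and had wide counting intervals, -0.37 to 0.51 from soft to stiff. It overlaps Ufsp2 on the opposite strand, which had a mean of 1514, so reads of Ufsp2 in its count cannot be told apart if counting ignored strand. Mxi1, a MYC antagonist, stood at 1096, 1075 and 1119.9, and the histone demethylase gene Kdm3a at 571.0, 629.7 and 567.1. Their log2 ratios of 0.03 and -0.01 changed sign under some settings. For the 7 hypoxia-induced members the median from soft to stiff was 0.03 on the log2 scale, against 0.29 for the 9 enzymes of upper glycolysis and 0.19 for the 6 of lower glycolysis.

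Genes of the same pathways that are not members were counted from lists, beside the 11.8% of all genes called higher and 3.77% called lower from soft to stiff. Of 12 other glycolysis genes past the minimum mean, 1 was called higher from soft to stiff, Hk3, and 2 lower, Bpgm and Pfkfb1. Bpgm makes 2,3-bisphosphoglycerate, a side branch of lower glycolysis, and stood at 3025, 2824 and 1545, a log2 ratio of -0.97 (-1.06 to -0.88). Of 14 genes of pyruvate entry and lactate transport, Slc16a7 was called higher, at 0.53, and Pdp1, a pyruvate dehydrogenase phosphatase, lower, at -0.55. The 3 most abundant were the transporter chaperone Bsg and the pyruvate dehydrogenase complex genes Pdha1 and Dld, with log2 ratios of -0.07, -0.15 and -0.14. Of 11 other HIF pathway components, Epas1 was called higher and none lower. The most abundant of these, Elob, Eloc and Cul2, belong to the ligase complex that ubiquitinates HIF and had log2 ratios of -0.09, -0.09 and -0.11. Of 21 other hypoxia-induced genes, 0 were called higher and 1, Stc2, lower, at -0.55, with a median of 0.02. The 3 most abundant of them were P4ha1, Vegfa and Plod2. P4ha1 and Plod2, which hydroxylate collagen, had log2 ratios of 0.02 and -0.02. Vegfa, the vascular growth factor, stood at 5990.2, 7152 and 4847, highest on the intermediate plate and lowest on the stiff one. Adm had the opposite order. None of the 7 pentose phosphate genes was called from soft to stiff. The most abundant, Pgd, Taldo1 and Tkt, had log2 ratios of 0.41, 0.46 and 0.04.

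Near-identical copies elsewhere in the genome can split reads. By alignment of the canonical transcripts, 10 members had at least 1 other annotated gene with 95% identity over 200 bases, Gapdh with 82. Counts of such copies never exceeded 1.18% of the count of the member itself. The treatment of multiply mapped reads is not known. If they were dropped, reads of identical stretches would be missing from member and copy alike, and these counts would not show it.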

How the data were processed

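The deposited signal values are gene counts that the authors divided by a size factor of each library, and 3 identical tables were held, of which 1 was used. Per the submitters' processing notes, bcl2fastq 2.20.0, STAR 2.7.9a, featureCounts, Subread 2.0.1, DESeq2 1.34.0 and GRCm39 were named, with no role or order. The annotation, strand setting and treatment of multiply mapped reads are not given in the sources used here. In each library 100% of values were whole multiples of the value of 1 read (within 0.01), so reads were recovered. A count test needs replicates, and none was made.

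Log2 ratios used a pseudocount of 1, so they understate differences of low genes. Calls needed 0.5 in size and a mean of at least 50. A one-way difference needed 0.25 in each step. Transcript length, GC content and positions are those of GENCODE vM39 canonical transcripts, which matched all 33 members. The length and GC trend is a robust local linear fit over 300 neighbouring genes of 14045 with a mean of at least 10. Copies were sought with BLAST+ 2.17.0. Promoter windows are RefSeq's (table of GRCm38.p6). scikit-learn 1.9.0, scipy 1.17.1, pandas 2.3.3 and numpy 2.4.6 were run under Python 3.11.15, and the steps were tested on simulated data.

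The members and lists were chosen with earlier results of these data known. Every member was named. Of the other pathway lists, genes with a mean of at least 50 and past 0.5 from soft to stiff were named. Where fewer than 3 passed, the 3 with the highest mean were named too. Macrophage markers were given as sums, counts and a median without names, and genes of the other cell type lists were all named. Alternatives were other pseudocounts, minimum means, scalings, thresholds, the trend, and removal of members with copies. The count at 0.25 under other settings was added after the data were seen.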

Additional observations from a re-analysis of the deposited data

How the results depend on the processing

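No paired analysis was possible because each stiffness level had 1 library, and for the same reason no library could be left out. Of the 3 median ratios and the counts of calls, none reversed a call. The median of the members from soft to stiff, 0.18, was 0.13 under total-read scaling, 0.14 under upper-quartile scaling, 0.093 with the length and GC trend subtracted and 0.12 without the 10 members with copies. The median from intermediate to stiff, 0.17, was 0.13 under total-read scaling, 0.11 with the trend subtracted and 0.11 without members with copies. That from soft to intermediate, 0.03, was -0.0068 under upper-quartile scaling. The 5 calls from soft to stiff became 3 with the trend subtracted (Adm, Aldoc and Egln3), 17 at the lower threshold of 0.25 and 1, Adm, at the higher threshold. The 0 calls from soft to intermediate became 4, and the 4 from intermediate to stiff became 14, at the lower threshold. The latter became 1 at the higher one. The 2 members that differed one way in both steps became 1 under total-read and under upper-quartile scaling, 0 with the trend subtracted, 5 at the lower threshold and 0 at the higher. The 14 members higher by at least 0.25 from soft to stiff became 9 (27.3%, against 18.0% of genes) with the trend subtracted. The 11 from intermediate to stiff became 7 (21.2%, against 13.0%) under total-read scaling and 6 (18.2%, against 13.4%) with the trend subtracted. Thresholds change the counts by construction, and for the other settings the cause was not tested. Of 99 member ratios, 41 left their counting interval with the trend subtracted, 23 under total-read and 20 under upper-quartile scaling, and 0 under other pseudocounts or median centring. Signs changed in 6 members from soft to stiff, 7 from soft to intermediate and 3 from intermediate to stiff under some setting. Depth left wide intervals for Ankrd37, Aldoc and Eno2.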
